A study of Mus musculus with 18 samples.

Results

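The C1q/TNF related proteins are secreted relatives of adiponectin. Each has a collagen-like stalk and a globular C1q domain that assembles into trimers and larger multimers, and several are released by fat tissue, where they act on metabolism, complement and matrix. The 7 genes described here are C1qtnf1, C1qtnf2, C1qtnf3, C1qtnf5, C1qtnf6, C1qtnf7 and C1qtnf12, of 17267 gene symbols in the deposited tables. The family was chosen by the response of C1qtnf3, whose level was about 100 times higher with TGF-b1 than in CD mock cells. Differences of the 7 members between these groups, and the levels of C1qtnf3 in undifferentiated cells, are therefore given as a description with no test. Tests between these groups are given only for other genes. All 7 members passed the filter on low counts.

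The 18 libraries of poly(A) RNA came from primary preadipocytes of wild-type mice and formed 6 groups of 3. Preadipocytes are the precursors of fat cells, and these were isolated from epididymal white fat. In 1 group, undifferentiated cells from control diet (CD) mice had received TGF-b1, a cytokine that drives fibroblasts to make matrix and contract, together with SB431542, a kinase inhibitor of its type I receptor. Other CD cells had received TGF-b1 alone or were left as mock, and a mock group also came from mice on a high-fat diet (HFD). The remaining groups were sorted with an antibody to integrin alpha 5 as Itga5-High or Itga5-Low and then taken through adipogenic differentiation, with no diet given in their labels. Doses, times, ages and any pooling of animals are not stated by the labels.

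Libraries held 11154449 to 17288608 counts. Replicates differed little more than sampling noise, and the labels do not say that they were separate cultures or animals. The p-values thus reflect the spread among these libraries alone, and that spread may be technical. Smad7, an inhibitory Smad induced by TGF-b, was at 56.5 ± 1.92 CPM with TGF-b1 and SB431542, 145 ± 0.565 CPM with TGF-b1 and 88.8 ± 3.38 CPM in CD mock. CPM are counts divided by the TMM-scaled library size, times a fixed factor, and are given as mean ± SD over 3 libraries. All 7 markers of fat progenitors reached 1 CPM in the undifferentiated groups, and all 6 adipocyte markers measured did so in the differentiated groups. In every undifferentiated group all 9 macrophage, 5 endothelial and 4 mesothelial markers also reached 1 CPM. So did 4 or 5 of the 5 markers of pericytes and smooth muscle. In each differentiated group 3 macrophage, 4 endothelial, 1 mesothelial and 3 pericyte and smooth muscle markers reached it. These are bulk samples, in which fewer cells of a type and less RNA per cell cannot be told apart.

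C1qtnf3 lies on chromosome 15 from 10952332 to 10980162 on the plus strand of mm10. Its product, also known as cartducin, is a secreted protein of cartilage and fat known to restrain inflammatory signalling. The 250 bases before the start of its shorter transcript are shown because this gene had the widest range of levels among the members. A promoter window of C1qtnf7 is set beside it, as that of the member with the largest difference in the opposite direction. It precedes the start of NM_001135172, at 43515569. The other C1qtnf7 transcript, NM_175425, starts at 43601922, and no window is shown for it. NM_175425 took 49.7 ± 3.31% of C1qtnf7 counts in CD mock and 32.3 ± 13.5% with TGF-b1, with overlapping libraries. Both were read from the RefSeq promoter table (build GRCm38.p6), at chr15:10952082-10952331 and chr5:43515319-43515568, each on the plus strand. Capitals mark matches on either strand to CAGAC (the Smad box), GGAATG (the TEAD core) and TATAAA (the TATA box), and TGANTCA (AP-1) was searched as well. No marked matches overlap.
C1qtnf3: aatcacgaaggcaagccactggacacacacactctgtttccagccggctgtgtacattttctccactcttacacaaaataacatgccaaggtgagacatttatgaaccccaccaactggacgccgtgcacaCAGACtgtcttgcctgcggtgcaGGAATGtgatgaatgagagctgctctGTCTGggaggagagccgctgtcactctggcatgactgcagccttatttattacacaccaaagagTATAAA
C1qtnf7: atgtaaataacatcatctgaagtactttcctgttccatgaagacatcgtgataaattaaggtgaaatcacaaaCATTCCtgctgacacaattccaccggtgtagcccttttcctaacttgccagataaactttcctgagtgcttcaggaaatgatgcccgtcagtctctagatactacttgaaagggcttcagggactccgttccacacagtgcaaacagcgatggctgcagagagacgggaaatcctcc

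In the C1qtnf3 window the Smad box begins 119 bases before the start on the plus strand and 70 bases before it on the minus strand. The TEAD core begins 96 bases and the TATA box 6 bases before the start. These distances run to the start of the shorter transcript, at 10952332, and the longer transcript starts further on, at 10952357. The C1qtnf7 window holds a TEAD core on the minus strand, 177 bases before the start. A Smad box stood in 3 of the 5 members with a promoter in the table, against 42.2% of 32851 promoters. The TEAD core stood in 3 of 5 (12.6% of promoters), the TATA box in 1 of 5 (12.4%) and the AP-1 motif in 1 of 5 (6.75%), that of C1qtnf6. C1qtnf1 and C1qtnf12 had no entry. These matches are letters in a window and do not show that a factor was bound.

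Levels of different genes were compared per transcript length, in TPM. With TGF-b1 and SB431542, C1qtnf6 (75.4 ± 0.872 TPM) and C1qtnf1 (74.8 ± 0.283 TPM) were at the top, and their libraries overlapped. With TGF-b1 the order was C1qtnf3 at 79.4 ± 0.620 TPM, then C1qtnf6 (48.0 ± 1.05), C1qtnf5 (36.3 ± 3.404), C1qtnf2 (32.0 ± 1.97), C1qtnf12 (22.05 ± 2.45), C1qtnf1 (18.5 ± 0.772) and C1qtnf7 (7.005 ± 1.23). Libraries of C1qtnf5 and C1qtnf2 overlapped there, and those of other neighbours did not. In HFD mock cells C1qtnf6 (84.9 ± 1.98 TPM) and C1qtnf5 (66.6 ± 3.08 TPM) led. The same genes led in CD mock cells, with 75.6 ± 4.03 and 59.9 ± 2.08 TPM. C1qtnf1 (38.5 ± 1.58), C1qtnf2 (30.8 ± 2.03), C1qtnf7 (25.9 ± 0.825) and C1qtnf12 (23 ± 0.650) followed in CD mock, without overlap between libraries of neighbours in this order, and C1qtnf3 was last at 0.875 ± 0.249 TPM.

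The differentiated cells stand in a separate table, so their levels are only set beside the others. C1qtnf5 led there, at 153 ± 3.10 TPM in Itga5-High and 165 ± 7.18 TPM in Itga5-Low cells. C1qtnf6 had 127 ± 2.89 and 127 ± 4.01 TPM in Itga5-High and Itga5-Low cells. C1qtnf12, which encodes the insulin-sensitising adipokine adipolin, had 72.7 ± 4.52 TPM in Itga5-High and 68.8 ± 1.80 TPM in Itga5-Low cells. C1qtnf7 (5.02 ± 0.172 TPM) and C1qtnf3 (4.80 ± 0.916 TPM) were lowest in Itga5-High cells, with overlapping libraries, and C1qtnf7 was lowest in Itga5-Low cells at 9.47 ± 1.23 TPM.

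**Figure D1:**
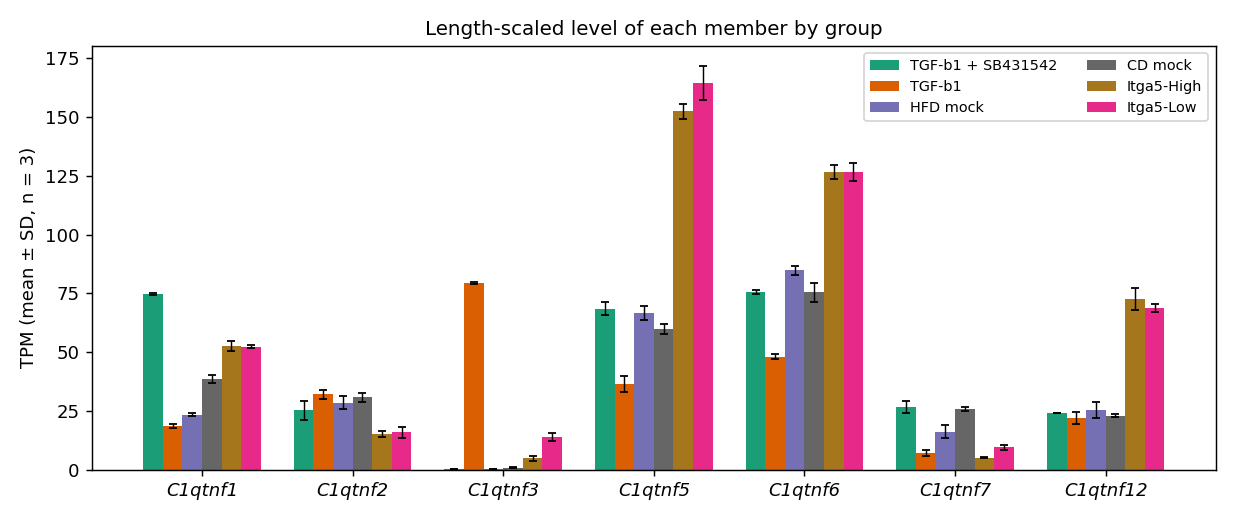
Mean TPM of each member (bars, with SD over 3 libraries as error bars) in the 6 groups, on a linear axis from 0. C1qtnf3 stands at 79.4 TPM with TGF-b1 and below 1 TPM in the other undifferentiated groups; the differentiated groups come from a separate table.

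C1qtnf3 was nearly silent in all undifferentiated cells except those given TGF-b1 alone. Its libraries held 1, 2 and 2 counts with TGF-b1 and SB431542. They held 997, 948 and 1252 counts with TGF-b1, which is 85.02, 84.1 and 84.4 CPM. HFD mock libraries held 2, 4 and 4 counts, and CD mock libraries 9, 15 and 7 counts. The TGF-b1 libraries lay far above all others and close to each other, as the plot of C1qtnf3 by library shows.

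Summed over 3 libraries, the scaled ratio of TGF-b1 to CD mock was 101, on 3197 and 31 counts. Cells given TGF-b1 with SB431542 stood 684-fold below TGF-b1 cells and 6.75-fold below CD mock cells, on 5 counts in all. HFD mock cells stood 3.37-fold below CD mock cells, on 10 counts. Ratios on so few counts are coarse, and C1qtnf3 passed the filter on low counts through the TGF-b1 libraries. No library of HFD mock cells or of cells given TGF-b1 with SB431542 reached the lowest CD mock library at 0.5997 CPM. The 3 comparisons with CD mock share the same 3 control libraries.

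**Figure D2:**
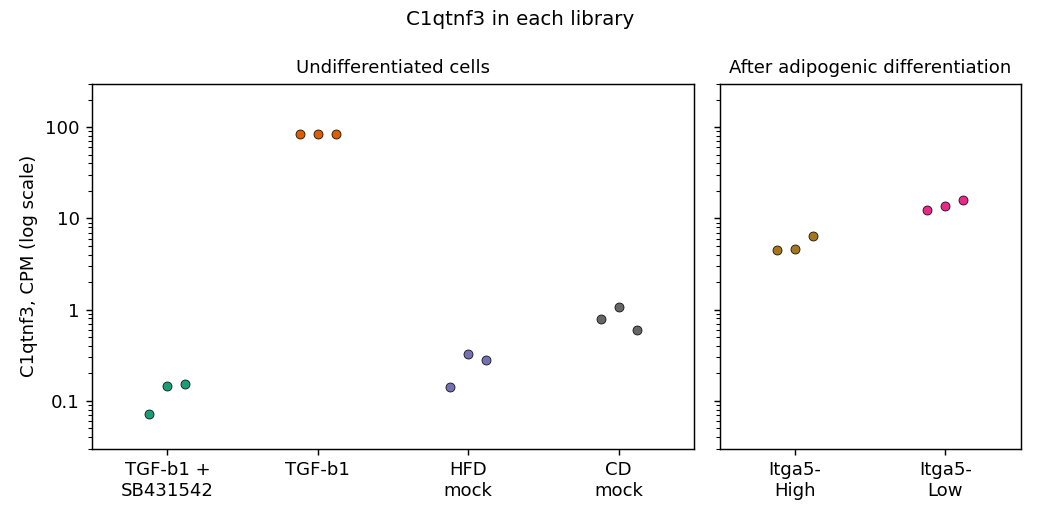
C1qtnf3 in each of 18 libraries (points) in CPM on a log axis, with undifferentiated cells on the left and differentiated cells on the right. The 3 TGF-b1 libraries sit between 84.1 and 85.02 CPM, and the highest CD mock library is at 1.06 CPM.

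The 2 listed transcripts of C1qtnf3 differ at the end of exon 1 of 6, and their starts differ too (10952357 for the longer and 10952332 for the shorter one). The longer one, NM_001204134, keeps 219 bases, or 73 codons, that the shorter NM_030888 splices out. This stretch lies at chr15:10952538-10952756 on the plus strand of GRCm38 (GENCODE M21) and is shown because it is the coding sequence by which they differ.
Extra coding stretch: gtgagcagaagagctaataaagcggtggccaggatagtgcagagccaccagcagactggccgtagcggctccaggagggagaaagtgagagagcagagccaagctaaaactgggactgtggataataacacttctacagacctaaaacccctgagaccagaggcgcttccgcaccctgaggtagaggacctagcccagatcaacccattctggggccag

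With TGF-b1 the longer transcript took 17.8 ± 1.121% of the C1qtnf3 counts (17.0% to 19.1%, n = 3). Its share was 31.1 ± 13.4% in Itga5-High and 28.3 ± 6.61% in Itga5-Low cells, with overlapping libraries. In CD mock and HFD mock cells it was 2.01% in all 6 libraries at 2 to 15 counts each, so the share there follows the authors' division of reads and does not measure isoforms. The labels do not say how reads were divided.

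The other members were set between TGF-b1 and CD mock cells as a description. Of the 6 members other than C1qtnf3, 1 was higher and 4 were lower with TGF-b1 without overlap between the libraries, and 1 overlapped. Of the 14078 genes tested, 33.4% were called higher and 34.2% lower at an adjusted p under 0.05. Those shares count calls and not overlap, so they are no measure for the member counts. The share of all genes without overlap was not computed. The median log2 difference of the 6 members was -0.51, against -0.02 for all genes. Because the family was chosen on this contrast, nothing is read from these counts.

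C1qtnf7, a little-studied member with effects on metabolism in mice, had the lowest ratio among the members. C1qtnf9, which is not among them, had a lower ratio and is given with the other C1q domain genes. It was at 4.26, 5.41 and 4.32 CPM with TGF-b1 and at 14.5, 15.3 and 14.3 CPM in CD mock, a log2 difference of -1.67 ± 0.13 (SE). C1qtnf1, whose product inhibits collagen-driven platelet aggregation, had 36.6, 34.0 and 37.1 CPM with TGF-b1 and 64.3, 69.6 and 65.8 CPM in CD mock (-0.89 ± 0.05). Neither gene had overlapping libraries between these groups.

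C1qtnf5, mutated in a human late-onset retinal degeneration, averaged 21.8 ± 1.87 CPM with TGF-b1 and 32.1 ± 1.22 CPM in CD mock (-0.54 ± 0.07 log2). C1qtnf6, whose product restrains complement, averaged 51.2 ± 1.07 CPM with TGF-b1 and 71.6 ± 3.53 CPM in CD mock (-0.49 ± 0.04). C1qtnf2, a close relative of adiponectin, averaged 17.3 ± 1.11 CPM with TGF-b1 and 14.8 ± 0.988 CPM in CD mock (0.24 ± 0.09). For these 3 genes the groups did not overlap either. C1qtnf12 averaged 13.01 ± 1.49 CPM with TGF-b1 and 12.1 ± 0.333 CPM in CD mock (0.12 ± 0.10), with overlapping libraries. With scaling by total counts the median over all genes was -0.16 in place of -0.02, and this left 3068 of 9759 calls higher, against 4705 of 9517 with the scaling used here. C1qtnf2 was then at 0.09 and C1qtnf12 at -0.03.

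Markers of cell types also differed between these groups. Of 7 markers of fat progenitors 1 was higher and 6 lower, summing to 1182 to 1206 CPM with TGF-b1 and 1730 to 1738 CPM in CD mock. Pdgfrb, the higher 1, was at 1001 CPM with TGF-b1 and made up most of that sum. The median log2 difference of the 7 was -2.42, against -0.02 for all genes. Of the 4 mesothelial markers 3 were lower and 1 not called (317 to 324 CPM with TGF-b1, 1444 to 1478 CPM in CD mock), and all 6 adipocyte markers tested were lower (44.5 to 47.0 CPM with TGF-b1, 181 to 185 CPM in CD mock). Only Fabp4 of these 6 reached 1 CPM with TGF-b1, at 45.1 CPM, and 5 reached it in CD mock. Of 5 markers of pericytes and smooth muscle 2 were higher and 3 lower (519 to 524 CPM with TGF-b1, 377 to 388 CPM in CD mock). Of 5 endothelial markers 1 was higher and 4 lower (158 to 162 CPM with TGF-b1, 300 to 318 CPM in CD mock), and of 9 macrophage markers 4 were higher, 3 lower and 2 not called (590 to 608 CPM with TGF-b1, 516 to 530 CPM in CD mock). Their part in the members' differences was not tested.

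**Figure D3:**
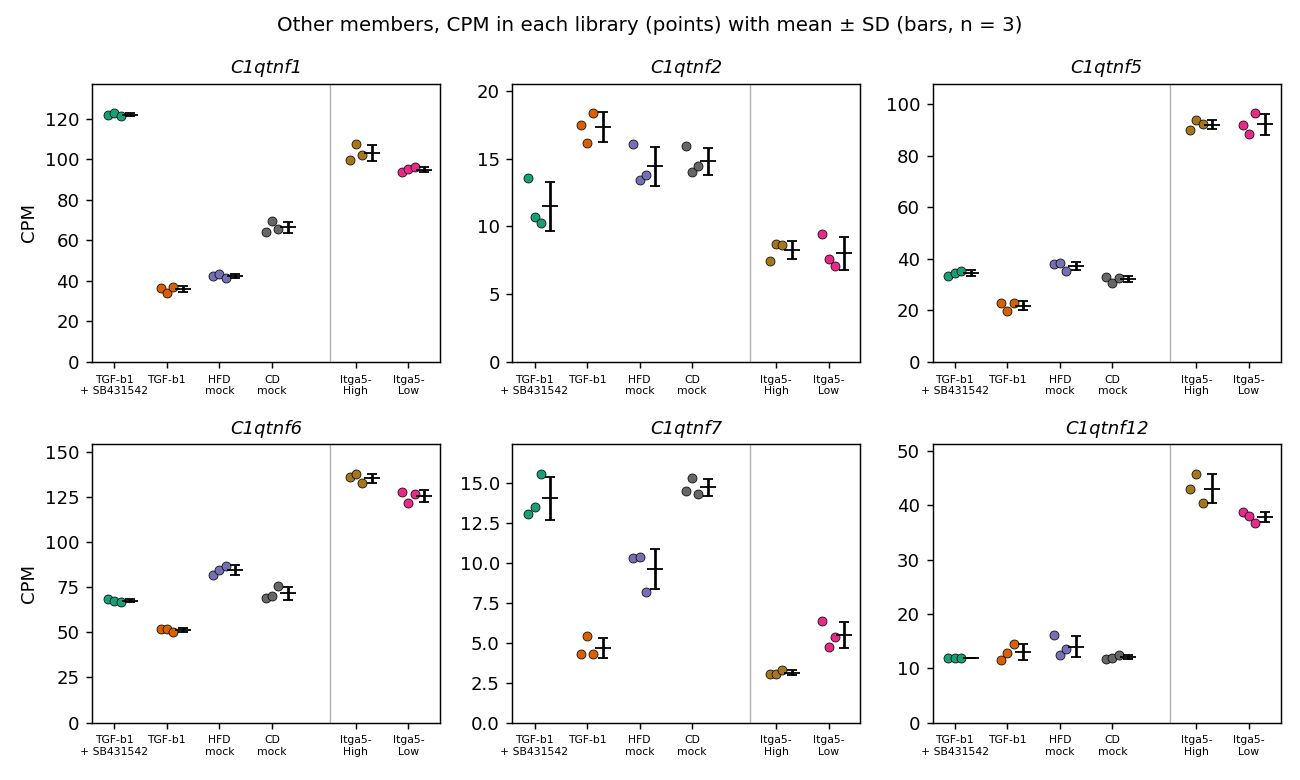
CPM of the other 6 members in every library (points) with mean ± SD over 3 libraries (bars), on linear axes from 0; the grey line parts undifferentiated from differentiated cells. C1qtnf1 is highest with TGF-b1 and SB431542, at 122 CPM, and C1qtnf7 is lowest among undifferentiated cells with TGF-b1, at 4.66 CPM.

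With SB431542 added to TGF-b1, most of these genes rose. Of the 6 members other than C1qtnf3, 4 rose, 1 fell and 1 was not called in edgeR's quasi-likelihood test, with 41.4% of all genes called higher and 38.3% lower. Their median log2 change was 0.53, against 0.04 for all genes. This comparison shares the TGF-b1 libraries with the one that chose the family.

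Among these members C1qtnf1 rose the most. It was at 122.2, 122.7 and 121.6 CPM with TGF-b1 and SB431542, against 36.6, 34.0 and 37.1 CPM with TGF-b1, a 3.39-fold rise (log2 1.76 ± 0.04, edgeR adjusted p = 2.29e-35). C1qtnf7 was at 13.1, 13.5 and 15.5 CPM with SB431542 added, against 4.26, 5.41 and 4.32 CPM with TGF-b1, a 3.02-fold rise (1.59 ± 0.13, edgeR adjusted p = 1.61e-15). All 3 treated libraries stood above the TGF-b1 libraries for both genes.

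C1qtnf5 rose 1.57-fold to 34.5 ± 1.14 CPM with TGF-b1 and SB431542, against 21.8 ± 1.87 CPM with TGF-b1 (edgeR adjusted p = 1.64e-12). C1qtnf6 rose 1.32-fold to 67.6 ± 0.756 CPM, against 51.2 ± 1.07 CPM (edgeR adjusted p = 1.09e-11). C1qtnf2 fell 1.51-fold to 11.5 ± 1.81 CPM, against 17.3 ± 1.11 CPM (edgeR adjusted p = 4.68e-07). C1qtnf12 was at 11.9 ± 0.0497 CPM with SB431542 added and 13.01 ± 1.49 CPM with TGF-b1, a log2 difference of -0.14 ± 0.10 that was not called (edgeR adjusted p = 0.203).

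With scaling by total counts the median over all genes was 0.30 in place of 0.04 in this comparison, and this left 8047 of 11493 calls higher, against 5835 of 11223. The 5 member calls kept their direction, while C1qtnf12 then stood at 0.12. Markers of cell types moved too. Of 7 progenitor markers 6 were higher and 1 lower with SB431542 added, with a median log2 change of 2.43. Of 5 markers of pericytes and smooth muscle 3 were higher and 2 lower. Of 5 endothelial markers, 4 were higher and 1 lower with SB431542 added, and their summed level was 639 to 650 CPM, against 158 to 162 CPM with TGF-b1. The 4 mesothelial markers summed to 1375 to 1381 CPM against 317 to 324 CPM, with 3 higher and 1 lower. The macrophage list had 8 members higher and 1 lower (1024 to 1046 CPM against 590 to 608 CPM). All 6 adipocyte markers tested were higher, summing to 1129 to 1142 CPM with SB431542 added and 44.5 to 47.0 CPM with TGF-b1. With TGF-b1 alone only 1 of them reached 1 CPM. No marker in the tables was at 0 in every library of a group, and the part of these cells in the members' changes was not tested.

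Set against CD mock, cells given TGF-b1 with SB431542 differed in few members. Of the 6 other than C1qtnf3, 1 rose, 1 fell and 4 were not called, with 30.6% of all genes called higher and 30.4% lower. C1qtnf1 rose 1.83-fold to 122 ± 0.525 CPM, against 66.6 ± 2.69 CPM in CD mock (log2 0.87 ± 0.04, edgeR adjusted p = 1.54e-25). C1qtnf2 fell to 11.5 ± 1.81 CPM, against 14.8 ± 0.988 CPM in CD mock (-0.36 ± 0.10, edgeR adjusted p = 0.00216).

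The differences of the uncalled members were small. They were 0.11 ± 0.06 for C1qtnf5, -0.08 ± 0.04 for C1qtnf6, -0.07 ± 0.09 for C1qtnf7 and -0.01 ± 0.10 for C1qtnf12 on the log2 scale. C1qtnf7 averaged 14.01 ± 1.32 CPM with TGF-b1 and SB431542 and 14.7 ± 0.517 CPM in CD mock, with overlapping libraries. With scaling by total counts the median over all genes was 0.12 in place of 0.01, and this left 5962 of 8802 calls higher, against 4303 of 8587. C1qtnf5 was then called (edgeR adjusted p = 0.00142), and the differences of C1qtnf6, C1qtnf7 and C1qtnf12 turned to 0.03, 0.03 and 0.10. C1qtnf6 was called, at -0.11 and -0.10, without CD mock replicate 1 or without CD mock replicate 2 (edgeR adjusted p = 0.0295 and 0.0497).

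Markers of other cell types differed here as well. All 6 adipocyte markers tested were higher, summing to 1129 to 1142 CPM with TGF-b1 and SB431542 and 181 to 185 CPM in CD mock. All 9 macrophage markers were higher (1024 to 1046 CPM with TGF-b1 and SB431542, 516 to 530 CPM in CD mock). Of 5 endothelial markers 4 were higher and 1 lower (639 to 650 CPM with TGF-b1 and SB431542, 300 to 318 CPM in CD mock). Of 4 mesothelial markers 1 was higher, 2 lower and 1 not called, and of 7 progenitor markers 3 were higher, 2 lower and 2 not called. Of 5 markers of pericytes and smooth muscle 3 were higher, 1 lower and 1 not called. Their part in the rise of C1qtnf1 and the fall of C1qtnf2 was not tested.

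**Figure D4:**
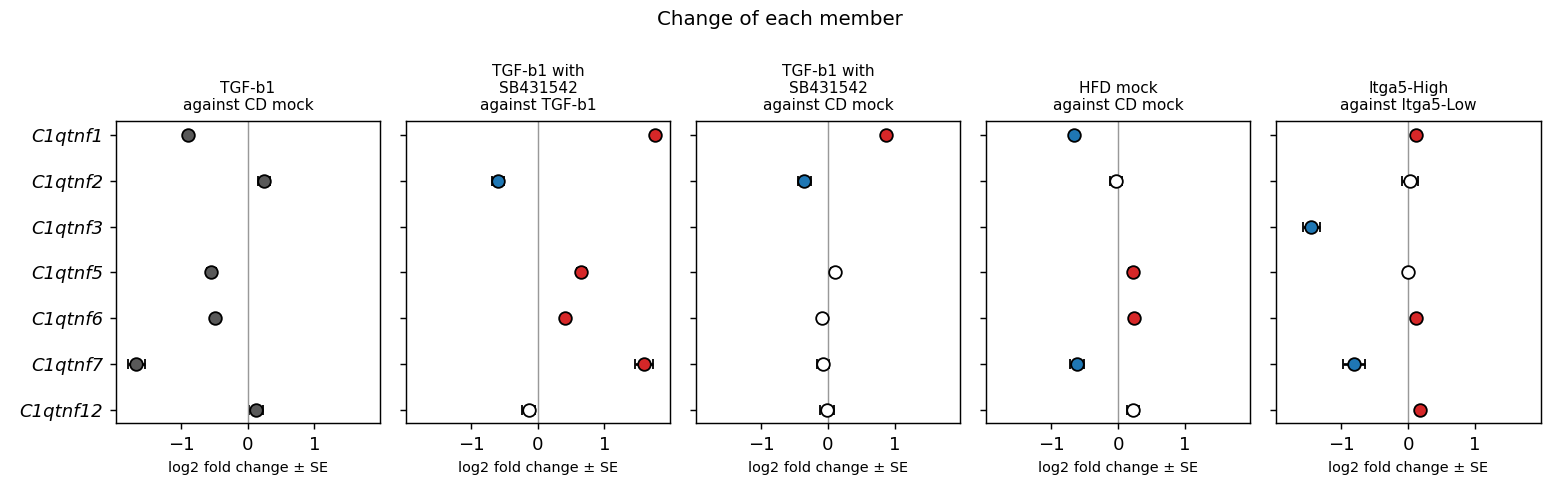
Log2 fold change ± SE of each member in 5 comparisons; red points are called higher, blue points called lower and white points not called at an adjusted p under 0.05. Grey points carry no test, and C1qtnf3 is plotted only between Itga5-High and Itga5-Low cells. C1qtnf1 reaches 1.76 when SB431542 is added to TGF-b1.

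Preadipocytes of HFD mice carried less C1qtnf1 and C1qtnf7 and slightly more C1qtnf5 and C1qtnf6 than those of CD mice. Of the 6 members other than C1qtnf3, 2 rose, 2 fell and 2 were not called, with 27.1% of all genes called higher and 26.6% lower, so the share of members called in each direction was near that of all genes. C1qtnf1 was at 42.4, 43.6 and 41.4 CPM in HFD mock and 64.3, 69.6 and 65.8 CPM in CD mock, a 1.57-fold fall (log2 -0.65 ± 0.05, edgeR adjusted p = 2.11e-17). C1qtnf7 was at 10.3, 10.4 and 8.18 CPM in HFD mock and 14.5, 15.3 and 14.3 CPM in CD mock (-0.62 ± 0.10, edgeR adjusted p = 1.76e-06). The HFD libraries lay below all CD libraries for both genes.

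C1qtnf6 rose 1.18-fold to 84.5 ± 2.62 CPM in HFD mock, against 71.6 ± 3.53 CPM in CD mock (edgeR adjusted p = 3.80e-07). C1qtnf5 rose 1.16-fold to 37.3 ± 1.59 CPM, against 32.1 ± 1.22 CPM (edgeR adjusted p = 0.00116). C1qtnf12 averaged 14.01 ± 1.87 CPM in HFD mock and 12.1 ± 0.333 CPM in CD mock, which narrowly missed the threshold (0.22 ± 0.10, edgeR adjusted p = 0.0514). It was called without HFD mock replicate 2, at 0.30 (edgeR adjusted p = 0.0159). C1qtnf2 differed by -0.03 ± 0.09 log2 and was not called (edgeR adjusted p = 0.835).

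Markers of other cells differed strongly with diet. All 9 macrophage markers were higher in HFD mock, with a summed level of 2415 to 2438 CPM against 516 to 530 CPM in CD mock. All 4 mesothelial markers were lower (347 to 352 CPM against 1444 to 1478 CPM), as were all 5 endothelial markers (95.1 to 102 CPM against 300 to 318 CPM). Of 7 progenitor markers 1 was higher and 6 lower (1590 to 1608 CPM against 1730 to 1738 CPM), with a median log2 difference of -1.35. Pdgfrb, the higher 1, was at 1072 CPM in HFD mock and made up most of that sum. Of 6 adipocyte markers tested 5 were lower and 1 not called (94.3 to 100.4 CPM against 181 to 185 CPM), with a median of -3.62. Only Fabp4 of them reached 1 CPM in HFD mock, at 94.8 CPM, against 156 CPM in CD mock. Of 5 markers of pericytes and smooth muscle 1 was higher, 3 lower and 1 not called. None was at 0 in every library of a group, and their part in the members' differences was not tested. Scaling by total counts left 2675 of 7943 calls higher, against 3821 of 7566, and changed no call of a member.

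After differentiation, C1qtnf3 was lower in Itga5-High than in Itga5-Low cells. None of these libraries took part in choosing the family, and all 7 members were tested. Of them 3 rose, 2 fell and 2 were not called, with 27% of 13468 genes called higher and 26.5% lower. The median log2 change of the members was 0.03, against -0.003 for all genes.

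C1qtnf3 was at 4.55, 4.63 and 6.37 CPM in Itga5-High cells and 12.5, 13.7 and 15.9 CPM in Itga5-Low cells. The groups did not overlap, and the level was 2.74-fold lower in Itga5-High cells (log2 -1.45 ± 0.13, edgeR adjusted p = 1.01e-11). Itga5 itself, the gene of the sorted protein, was at 472 ± 8.82 CPM in Itga5-High and 329 ± 4.68 CPM in Itga5-Low cells. C1qtnf7 fell 1.75-fold, to 3.03, 3.03 and 3.31 CPM in Itga5-High cells, against 6.38, 4.73 and 5.34 CPM in Itga5-Low cells (edgeR adjusted p = 0.00013).

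The 3 rises were small. C1qtnf12 rose 1.14-fold to 43.1 ± 2.64 CPM in Itga5-High, against 37.9 ± 0.996 CPM in Itga5-Low (edgeR adjusted p = 0.00177). C1qtnf6 rose 1.08-fold to 135 ± 2.55 CPM, against 125 ± 3.36 CPM (edgeR adjusted p = 0.00124). C1qtnf1 rose 1.08-fold to 103 ± 3.97 CPM, against 94.98 ± 1.27 CPM (edgeR adjusted p = 0.00412), a call that was lost with scaling by total counts (log2 0.07, edgeR adjusted p = 0.0635). C1qtnf2 and C1qtnf5 differed by 0.03 ± 0.12 and -0.003 ± 0.035 log2 and were not called. With total counts 3024 of 7254 calls were higher, against 3635 of 7199.

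Adipocyte markers summed to 4043 to 4075 CPM in Itga5-High and 4610 to 4637 CPM in Itga5-Low cells, with 1 of the 6 tested higher and 4 lower. Of 7 progenitor markers 2 were higher in Itga5-High cells, 3 lower and 2 not called. They summed to 1913 to 1945 CPM in Itga5-High and 1850 to 1884 CPM in Itga5-Low cells. Of 4 endothelial markers tested 1 was higher, 1 lower and 2 not called. Of 4 markers of pericytes and smooth muscle tested 1 was higher and 3 lower. Few macrophage or mesothelial markers were present. On the macrophage list Csf1r was at 29.5 CPM in Itga5-High and 9.54 CPM in Itga5-Low cells. Lyz2 was at 6.06 and 6.02 CPM and Cd68 at 2.96 and 1.96 CPM in Itga5-High and Itga5-Low cells. Adgre1, Mrc1, C1qa, C1qb and C1qc were each under 1 CPM in both groups. On the mesothelial list Krt19 was at 99.3 CPM in Itga5-High and 40.1 CPM in Itga5-Low cells, while Upk3b and Lrrn4 were under 1 CPM in both groups. These marker genes are named to show what their lists hold and were chosen after their values were seen. The part of these cells in the members' differences was not tested.

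Other genes with a C1q domain were followed as a list of 25, of which 15 were tested in undifferentiated and 10 in differentiated cells. The list includes C1qtnf4 and C1qtnf9, which carry the family name but are not among the members described above. With TGF-b1 against CD mock, 7 were higher (33.4% of all genes were) and 8 lower (34.2%). Erfe, which encodes erythroferrone, the hormone that lowers hepcidin, rose to 47.6, 49.0 and 46.3 CPM with TGF-b1, against 4.39, 4.17 and 3.08 CPM in CD mock (log2 3.61 ± 0.13, edgeR adjusted p = 5.20e-32). Mmrn2, an endothelial matrix protein, fell to 6.27 CPM with TGF-b1, against 24.3 CPM in CD mock (edgeR adjusted p = 4.78e-21). C1ql3, a synaptic C1q protein, rose to 18.3 CPM, against 4.63 CPM (edgeR adjusted p = 2.76e-18).

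With SB431542 added to TGF-b1, 9 were higher and 6 lower (41.4% and 38.3% of all genes). C1qtnf9, a secreted relative of adiponectin, had 158, 149 and 149 counts with TGF-b1 and SB431542 and 0, 2 and 4 counts with TGF-b1, a scaled ratio of 71.0 (exact conditional 95% interval 32.4 to 195). With TGF-b1 and SB431542 its CPM was 2.52 times that of CD mock (edgeR adjusted p = 4.79e-11). With TGF-b1 alone C1qtnf9 stood 28.2-fold below CD mock, on 6 and 166 counts. In HFD mock it stood 5.31-fold below CD mock, on 34 counts. Adipoq, the adiponectin gene, stood at 70.4 ± 2.01 CPM with TGF-b1 and SB431542, at 0.118 CPM with TGF-b1 and at 3.99 CPM in CD mock. Erfe fell to 0.762 CPM with TGF-b1 and SB431542, against 47.6 CPM with TGF-b1 (edgeR adjusted p = 1.50e-35). Set against CD mock, cells with TGF-b1 and SB431542 had 8 of the 15 higher, 6 lower and 1 not called (30.6% and 30.4% of all genes were higher and lower).

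In HFD mock against CD mock, 6 of the 15 were higher, 7 lower and 2 not called, with 27.1% and 26.6% of all genes higher and lower. The complement genes C1qa, C1qb and C1qc, which are also on the macrophage list, rose 9.73-fold, 8.32-fold and 8.29-fold. Between Itga5-High and Itga5-Low cells, 4 of 10 were higher, 3 lower and 3 not called, with 27% and 26.5% of all genes higher and lower. Col8a2, a short-chain collagen, fell to 8.65 CPM in Itga5-High cells, against 22.8 CPM in Itga5-Low cells (edgeR adjusted p = 8.84e-16). Adipoq fell to 257 CPM in Itga5-High, against 369 CPM in Itga5-Low cells (edgeR adjusted p = 1.28e-19). The median log2 change of the list was -0.32 with TGF-b1, 0.30 with SB431542 added to TGF-b1, 0.33 with both against CD mock, -0.06 in HFD mock and 0.05 in Itga5-High cells.

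**Figure D5:**
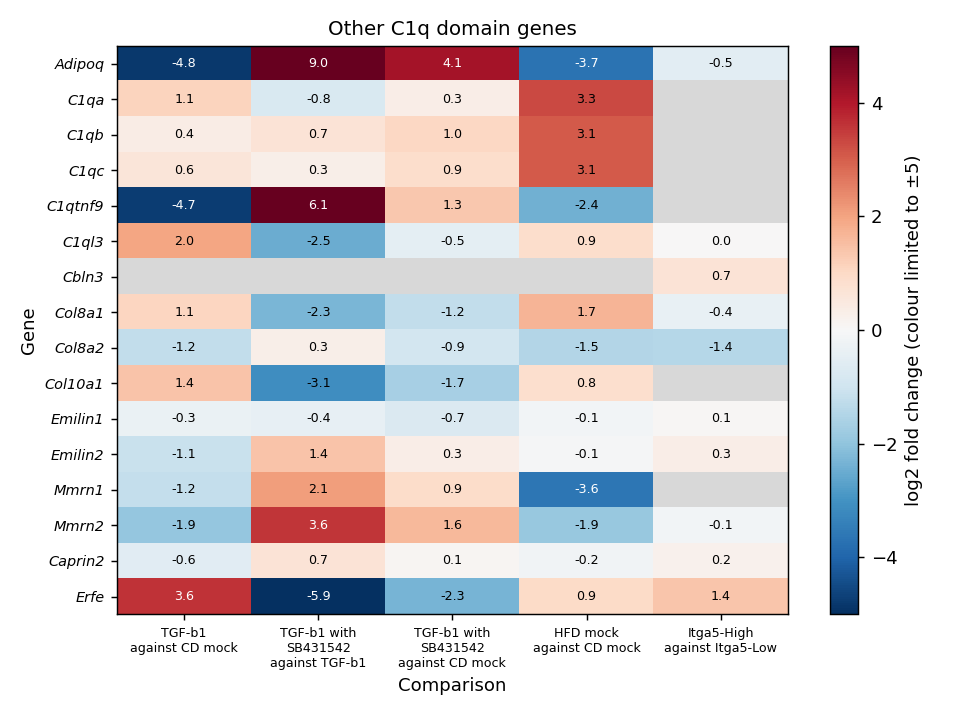
Log2 fold changes (colour and printed value) of the other C1q domain genes that were tested, with genes as rows and comparisons as columns; grey cells were not tested. Erfe reads 3.6 with TGF-b1 against CD mock and -5.9 when SB431542 is added to TGF-b1.

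Receptors, assembly factors and processing enzymes of the family form a list of 13, with 11 tested in each fit. With TGF-b1 against CD mock, 4 were higher, 5 lower and 2 not called, where 33.4% and 34.2% of all genes were higher and lower. Cdh13, the T-cadherin that binds adiponectin multimers, fell to 3.29 ± 0.412 CPM with TGF-b1, against 21.9 ± 3.92 CPM in CD mock (edgeR adjusted p = 1.23e-22). Furin, a protease that cleaves adipolin, rose 1.71-fold to 276 ± 1.43 CPM, against 162 ± 3.41 CPM (edgeR adjusted p = 2.63e-28).

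With SB431542 added to TGF-b1, 6 of the 11 were higher and 5 lower (41.4% and 38.3% of all genes). Cdh13 rose to 62.3 ± 1.69 CPM with TGF-b1 and SB431542, against 3.29 ± 0.412 CPM with TGF-b1 (edgeR adjusted p = 1.91e-34). Klf15, a transcription factor known to act on the adipolin gene, rose to 24.01 ± 0.773 CPM, against 1.17 ± 0.327 CPM (edgeR adjusted p = 5.78e-28). In HFD mock against CD mock 5 were higher, 4 lower and 2 not called (27.1% and 26.6% of all genes were higher and lower), with Cdh13 at 5.16 ± 0.150 CPM in HFD mock and 21.9 ± 3.92 CPM in CD mock (edgeR adjusted p = 3.50e-20). Between Itga5-High and Itga5-Low cells 4 were higher, 4 lower and 3 not called (27% and 26.5% of all genes were higher and lower), with Klf15 at 4.69 ± 0.491 CPM in Itga5-High and 10.2 ± 0.549 CPM in Itga5-Low cells (edgeR adjusted p = 2.72e-09). With TGF-b1 and SB431542 against CD mock 6 were higher, 4 lower and 1 not called (30.6% and 30.4% of all genes), and the median log2 change of the list lay between -0.17 and 0.31 in the 5 comparisons.

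Cartilage and tendon genes were listed because C1qtnf3 is known from cartilage. Of 19, 11 were tested in undifferentiated cells, and 3 were higher, 5 lower and 3 not called with TGF-b1 against CD mock (33.4% and 34.2% of all genes were higher and lower). Col11a1, a fibrillar collagen of cartilage, rose to 116 ± 3.30 CPM with TGF-b1, against 5.26 ± 0.883 CPM in CD mock (edgeR adjusted p = 4.19e-41). Col11a1 was at 0.518 ± 0.142 CPM with TGF-b1 and SB431542. Prg4 and Sox6, also on this list, were lower with TGF-b1 than in CD mock. Their log2 changes were -2.97 and -0.72 (edgeR adjusted p = 5.76e-20 and 9.71e-09). With SB431542 added to TGF-b1, 4 were higher, 4 lower and 3 not called (41.4% and 38.3% of all genes). With both against CD mock, 2 were higher, 4 lower and 5 not called (30.6% and 30.4%), and in HFD mock 2 were higher, 6 lower and 3 not called (27.1% and 26.6%). Between Itga5-High and Itga5-Low cells 0 of the 9 tested were higher, 5 were lower and 4 were not called (27% and 26.5% of all genes were higher and lower), with a median of -0.41 against -0.003 for all genes. Comp, a cartilage matrix protein, was at 33.0 ± 0.381 CPM in Itga5-High and 157 ± 4.79 CPM in Itga5-Low cells (edgeR adjusted p = 3.71e-31). Col11a1 was at 32.4 ± 2.05 CPM in Itga5-High and 69.0 ± 0.632 CPM in Itga5-Low cells (edgeR adjusted p = 2.71e-20).

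The genes most like each member over the 12 undifferentiated libraries were found by Pearson's r of log2(CPM + 1) among 10307 genes. The 12 libraries fall into 4 groups, which fix most of this likeness, so r is a description. For C1qtnf3 they were Sfn (r = 0.996), a 14-3-3 protein, Dusp4 (0.995), a phosphatase of MAP kinases, and Map3k20 (0.994). Sfn was at 4.93 CPM with TGF-b1 and SB431542, 59.2 CPM with TGF-b1, 5.80 CPM in HFD mock and 6.85 CPM in CD mock. For C1qtnf1 they were Por (0.998), Enpp2 (0.997) and Cldn5 (0.997), and for C1qtnf7 Ulk1, Muc16 and Tnfsf13 (0.986 to 0.987). C1qtnf5 was followed most closely by Rbm47, Jade2 and Ksr1 (0.985 to 0.988), and C1qtnf6 by Svep1, Hspa1b and Cic (0.985 to 0.990). C1qtnf2 had Sco1 (0.976), Ubqln4 and Celf1. C1qtnf12, whose group means varied least over the 4 groups, had C2cd2l (0.887), Lgr4 and Bcl7b.

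Positions of the other members in mm10 are chromosome 11 from 118428457 to 118451782 for C1qtnf1, chromosome 11 from 43474306 to 43491525 for C1qtnf2, and chromosome 9 from 44101770 to 44109187 for C1qtnf5. C1qtnf6 lies on chromosome 15 from 78523346 to 78529651 on the minus strand, and the others are on the plus strand. C1qtnf7 spans 43515569 to 43616586 on chromosome 5 and C1qtnf12 spans 155962312 to 155966629 on chromosome 4. C1qtnf5 overlaps Mfrp on the same strand, with which it shares long transcripts, and Rnf26 on the opposite one. C1qtnf1, C1qtnf6 and C1qtnf7 overlap antisense models. The labels do not say whether counting used strand, so reads of such partners could not be told apart, while C1qtnf2, C1qtnf3 and C1qtnf12 overlap no annotated gene.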

How the data were processed

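The authors sequenced poly(A) RNA in 18 libraries and deposited expected counts (estimated counts, not scaled to library size) per RefSeq transcript in 2 tables, of 12 undifferentiated and 6 differentiated libraries. The submitters' processing notes name fastp, STAR, featureCounts and mm10, and how reads were divided between transcripts is not given in the sources used here. Values of transcripts with 1 gene symbol were added up and rounded (Python 3.11.15, pandas 2.3.3). Each table was fitted on its own in R 4.3.3 with edgeR 4.0.16 (filterByExpr, TMM, quasi-likelihood test), with p-values adjusted by Benjamini-Hochberg over all 14078 or 13468 genes tested and calls at an adjusted p under 0.05. SEs were taken with dispersions held at 1e-04 or above, since 3780 and 1746 genes fell below that value. CPM use TMM factors, and TPM divide by transcript length. The interval of the C1qtnf9 ratio is an exact conditional binomial interval that covers counting error only (scipy 1.17.1). The test was checked on simulated counts. Motifs were searched in the 250 bases before each start.

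The members and lists were chosen with earlier results of these data known. Genes named are the 7 members; for each list and comparison, genes among the 3 called ones of largest change whose higher group reached 10 CPM; the 3 genes most alike to each member; and check genes such as Smad7 and Itga5. Not every gene the rule takes is printed. Some marker genes, such as Pdgfrb, and some values of C1qtnf9 were added outside it after they were seen. Samples were grouped by their titles. Same-numbered replicates of different groups did not deviate together (21 pairs, r between -0.0232 and 0.0209), so the numbers were not taken to pair samples. Depth limits single genes through counting noise. Alternatives were DESeq2 size factors and total counts for scaling, no filter, a dispersion floor, DESeq2 1.42.0, a replicate block, only the groups compared, and leaving out each replicate.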

Additional observations from a re-analysis of the deposited data

How the results depend on the processing

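The number of members called stayed within 1.5 times under every alternative run for the 4 comparisons below. TGF-b1 against CD mock is left out, since it chose the family. Of the 6 without C1qtnf3 it was 5 for TGF-b1 with SB431542 against TGF-b1, 2 to 3 for TGF-b1 with SB431542 against CD mock and 4 to 5 for HFD mock against CD mock. It was 4 to 5 of 7 for Itga5-High against Itga5-Low. With the replicate number as a term (replicate block) the counts were 5, 2, 4 and 5, as without it. In 12 of 42 checks of a library against the libraries of another group, the best correlation was with its own number.

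The 25 tested pairs of member and comparison gave 318 combinations of a pair with an alternative setting. Of these combinations 309 kept their side of the threshold, 1 lost its call, 8 gained one, and 0 called differences reversed. The lost call was C1qtnf1 between Itga5-High and Itga5-Low cells with total counts. Besides the gains given in the report, C1qtnf6 passed for TGF-b1 with SB431542 against CD mock with DESeq2 size factors (log2 -0.09, edgeR adjusted p = 0.0358). C1qtnf12 passed in HFD mock against CD mock with DESeq2 size factors, no filter and the dispersion floor (edgeR adjusted p = 0.0487, 0.0488 and 0.0446). The cause was not tested. Depth limits C1qtnf3 outside TGF-b1, where undifferentiated libraries held 1 to 15 counts.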
